A study of Monascus purpureus with 6 samples.

Results

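Citrate synthase and succinate dehydrogenase are enzymes of the tricarboxylic acid (TCA) cycle, and 3 of their genes in *Monascus purpureus* are described here: evm.TU.C4.56, annotated as citrate synthase, and evm.TU.C6.271 and evm.TU.C7.592, both annotated as succinate dehydrogenase. The members were taken by these identifiers, which the study's text ties to the enzymes, and all 3 were found among the 7491 rows of the count table and passed the filter on low counts that left 7355 genes. RNA was sequenced from mycelia of the YY-1 strain, used to make red food colorant on rice, and of winter, a derivative of YY-1 that carries a randomly inserted hygromycin resistance cassette and was picked for its low production of the mycotoxin citrinin, with more pigment than YY-1. Each strain is represented by 3 libraries (replicates a, b and c) from independent cultures harvested during pigment production. Winter is 1 transformant, so that a difference between the strains cannot be told apart from a feature of that clone, and the site of its insertion is not known from these data. The study named all 3 genes as downregulated in winter from these same libraries, so that a lower level here is no independent evidence.

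In the TCA cycle, citrate synthase joins acetyl-CoA to oxaloacetate and so sets the entry of carbon into the cycle. Succinate dehydrogenase oxidizes succinate to fumarate in the mitochondrial inner membrane and hands the electrons to ubiquinone, which makes it a part of both the cycle and the respiratory chain. The enzyme is built from several subunits with separate genes (a flavoprotein, an iron-sulfur protein and membrane anchors), and neither the study nor the count table says which subunit C6.271 or C7.592 encodes. Acetyl-CoA is also the building block of the polyketide pigments of *Monascus*, and fungi can regain it from exported citrate through citrate lyase. The question put to these genes is therefore whether their transcript levels differed between the strains. Transcript levels do not measure the draw of the cycle on acetyl-CoA, which was not tested.

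The expression of the 2 succinate dehydrogenase genes was lower in winter, whereas that of the citrate synthase gene was not separable from that in YY-1. C6.271 fell to 65.9% and C7.592 to 71.0% of the YY-1 level, and no library of one strain overlapped with the other strain in either gene. Such a lack of overlap was seen in 57.8% of all tested genes, and 25.5% were called lower in winter at an adjusted p below 0.05. The edgeR call of C7.592 was lost in 4 of the 6 fits that left out 1 library, and that of C6.271 in 1. C4.56 stood at 129% of the YY-1 level, with overlapping libraries, although the study names it too as downregulated in winter. The count ratio of citrate synthase to either succinate dehydrogenase gene was higher in every winter library than in every YY-1 library. Ratios of C4.56 to other genes with a mean count of at least 500 separated the strains in 42.9% of 3655 genes, and ratios of C6.271 did so in 71.1%. The ratio between the succinate dehydrogenase genes overlapped between the strains.

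The total counts per library were 9661178 to 10595943 in YY-1 and 15194009 to 16004947 in winter. The members were deeply covered, with 5152 to 20126 reads per gene and library, so that counting error alone was between 0.705% and 1.39% of a value. Levels are in CPM, the count of a gene as a share of the library size after adjustment of that size by TMM factors (trimmed mean of M-values), with no division by gene length. Values of a strain's libraries are listed in the order of the replicate letters, a to c. They are therefore compared between libraries for the same gene, not between genes. A transcript level in RNA from a whole culture cannot tell apart fewer cells that express a gene and less RNA of it in each cell.

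The first succinate dehydrogenase gene, C6.271, had 5442, 6596 and 5763 reads in the YY-1 libraries, which correspond to 536, 565 and 599 CPM. In the winter libraries it had 6311, 5404 and 5152 reads, or 429, 342 and 349 CPM. The raw counts of the strains are similar, but the winter libraries are larger, and on the CPM scale the lowest YY-1 library lay 106 CPM above the highest winter library. Among all genes of a library ordered by read count, C6.271 held rank 268 to 290 in YY-1 and rank 430 to 555 in winter. The strain means were 566 ± 31.4 and 374 ± 48.4 CPM for YY-1 and winter (SD, n = 3 each), and winter over YY-1 gave a log2 fold change of -0.60 (95% interval -0.97 to -0.23, edgeR adjusted p = 0.0136). Without winter replicate c, C6.271 no longer passed an adjusted p of 0.05 in edgeR (log2 fold change -0.55, adjusted p = 0.0853).

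The other succinate dehydrogenase gene, C7.592, showed 7201, 9424 and 7137 reads in the YY-1 libraries, equal to 709, 807 and 741 CPM. The winter libraries had 9002, 8136 and 7027 reads, equal to 612, 515 and 476 CPM. The gap between the lowest YY-1 and the highest winter library was 96.5 CPM, so that here too the strains stood apart. By read count the gene held rank 163 to 210 in YY-1 and rank 290 to 381 in winter. The strain means were 753 ± 50.2 and 535 ± 70.2 CPM (SD, n = 3 each) and differed by a log2 fold change of -0.49 (95% interval -0.88 to -0.11, edgeR adjusted p = 0.0379). This call was the less firm of the pair. In edgeR it was lost when YY-1 replicate a (adjusted p = 0.0813) or b (adjusted p = 0.0901) was left out, and when winter replicate b (adjusted p = 0.0770) or c (adjusted p = 0.191) was, with log2 fold changes of -0.50, -0.44, -0.47 and -0.42.

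For the citrate synthase gene C4.56, the YY-1 libraries had 9318, 8769 and 12413 reads, or 917, 751 and 1289 CPM. The winter libraries had 20088, 17191 and 20126 reads, or 1367, 1089 and 1363 CPM. YY-1 replicate c was therefore above winter replicate b, and the other YY-1 libraries were below every winter library. The strain means were 986 ± 275 and 1273 ± 159 CPM (SD, n = 3 each). The change between them was 0.37 on the log2 scale and its 95% interval ran from -0.14 to 0.88 (edgeR adjusted p = 0.210), which spans levels from 0.907-fold to 1.84-fold of YY-1, so that neither a small fall nor a rise of that size is outside it. The call turned on YY-1 replicate c, without which the log2 fold change was 0.61 and passed the threshold (edgeR adjusted p = 0.0342). Without YY-1 replicate b, the lowest library, it was 0.21 (edgeR adjusted p = 0.486).

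**Figure D1:**
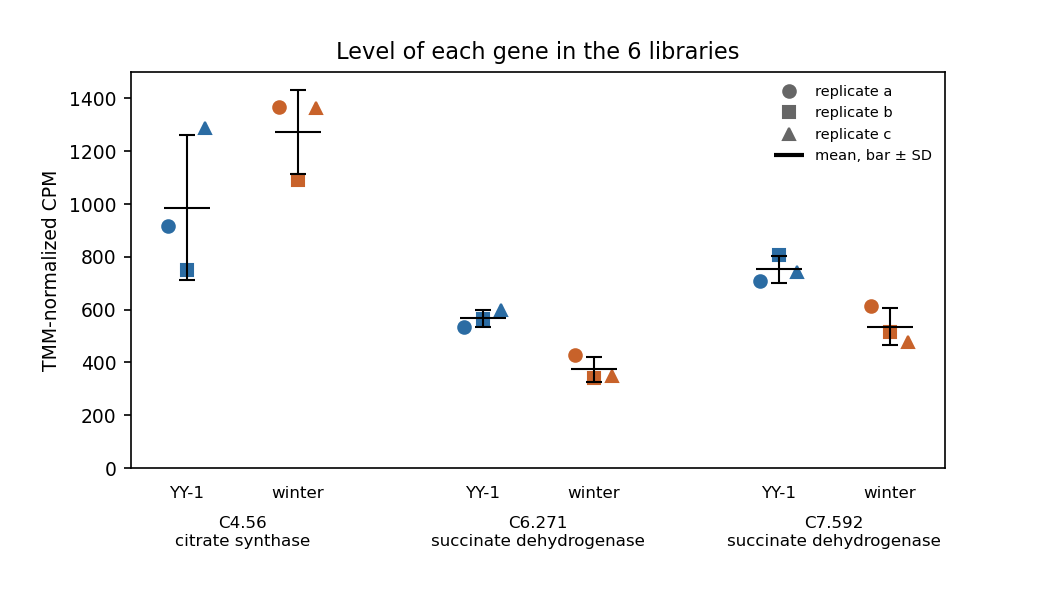
TMM-normalized CPM of the 3 genes in each library (points, shaped by replicate letter), with the mean and SD of each strain (n = 3). In C6.271 and C7.592 every YY-1 point lies above every winter point, while in C4.56 YY-1 replicate c (1289 CPM) lies above winter replicate b (1089 CPM). Levels are not divided by gene length, so heights are compared within a gene.

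Over all tested genes, edgeR called 48.0% at an adjusted p below 0.05, 22.5% with higher and 25.5% with lower expression in winter, and in 57.8% no library of either strain overlapped with the other strain. Of the 3 members, 2 were called (both lower) and 2 did not overlap, and against this background 3 genes give no result about the members as a group. In size, the changes were ordinary: 59.7% of the tested genes had a smaller absolute log2 fold change than C6.271, 51.7% a smaller one than C7.592 and 40.5% a smaller one than C4.56. For all 3 genes, an exact two-sided permutation test of the log2 CPM of 3 against 3 libraries cannot give a p below 0.1, and it gave 0.1 for C6.271, 0.1 for C7.592 and 0.2 for C4.56.

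**Figure D2:**
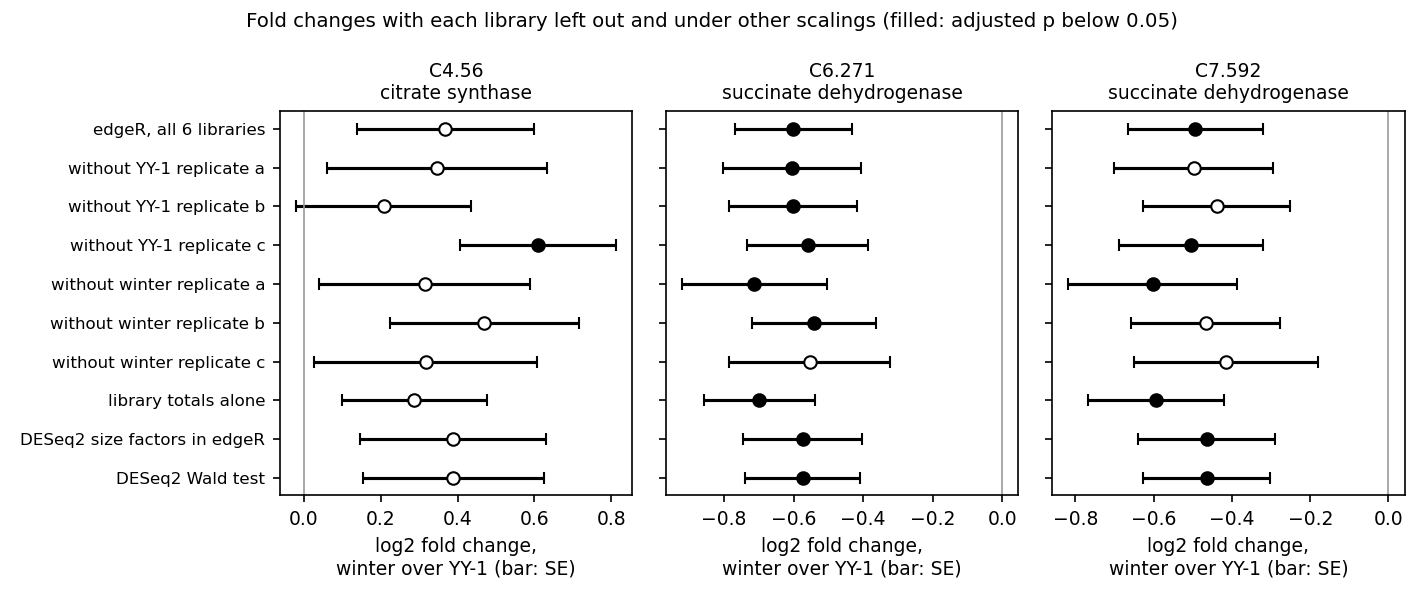
Log2 fold change of winter over YY-1 (x axis, with its standard error as the bar) for each gene, with all libraries, with each library left out and under other scalings and DESeq2. Filled points have an adjusted p below 0.05. C4.56 stays above 0 and both succinate dehydrogenase genes stay below 0 in each setting plotted, while the calls of C7.592 (4 of 6 libraries left out), C6.271 (without winter replicate c) and C4.56 (without YY-1 replicate c) change.

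The spread between replicates differed between the genes and between the strains. In YY-1, the coefficient of variation was 5.55% for C6.271 and 6.67% for C7.592 but 27.9% for C4.56. Among the genes with a mean count of at least 500, whose median in YY-1 was 13.7%, 10.9% had a smaller value than C6.271 and 87.6% a smaller value than C4.56. In winter the members were alike in spread, at 13.0%, 13.1% and 12.5% for C6.271, C7.592 and C4.56, against a median of 11.8%. All of these values exceed the counting error, which was at most 1.39%. C4.56 in YY-1 replicate c was 1.55-fold the mean of the other YY-1 libraries, and 94.3% of the tested genes were less far above, or were below, those libraries. In the same library C6.271 was at 1.09-fold and C7.592 at 0.980-fold, so that the high value of citrate synthase was not shared by the succinate dehydrogenase genes. YY-1 replicate b lay far off in the other direction. There C4.56 was 0.691-fold the mean of the other YY-1 libraries, and 95.2% of the tested genes were higher on this measure.

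The ratio of the read counts of 2 genes within a library is free of library size and of the scaling chosen. It still holds the lengths of both genes, so that its change from library to library is informative and its size is not. The ratio of C6.271 to C7.592 was 0.756, 0.700 and 0.807 in the YY-1 libraries, and 0.701, 0.664 and 0.733 in those of winter. Over the 6 libraries it varied by 21.6% from the lowest to the highest value, although both genes changed between the strains. The strains overlapped, with a mean ratio of 0.754 ± 0.0538 in YY-1 and 0.699 ± 0.0345 in winter (SD, n = 3 each). The mean log2 ratio was 0.11 lower in winter (a difference of -0.11, exact two-sided permutation p = 0.3). An exact 95% counting interval on the ratio was 0.780 to 0.836 in YY-1 replicate c and 0.642 to 0.688 in winter replicate b, which do not touch, so that the libraries differed by more than counting error.

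The ratio of citrate synthase C4.56 to C6.271 was 1.71, 1.33 and 2.15 in the YY-1 libraries. In the winter libraries it was 3.18, 3.18 and 3.91, above every YY-1 value. The winter mean was 2.01-fold the YY-1 mean on the log scale (exact two-sided permutation p = 0.1, the smallest that 3 against 3 libraries allow). The ratio of C4.56 to C7.592 was 1.29, 0.930 and 1.74 in YY-1 and 2.23, 2.11 and 2.86 in winter. Its winter mean was 1.86-fold that of YY-1 (a log2 difference of 0.90, exact two-sided permutation p = 0.1). YY-1 replicate c, which overlapped with winter in the level of C4.56, did not overlap in either ratio. The ratio of C4.56 to another gene with a mean count of at least 500 separated the strains in 42.9% of 3655 genes. For ratios to C6.271 this share was 71.1%, so that a separation by itself is common. Leaving out single libraries, the log2 difference ranged from 0.83 to 1.18 for C4.56 to C6.271 and from 0.67 to 1.12 for C4.56 to C7.592.

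**Figure D3:**
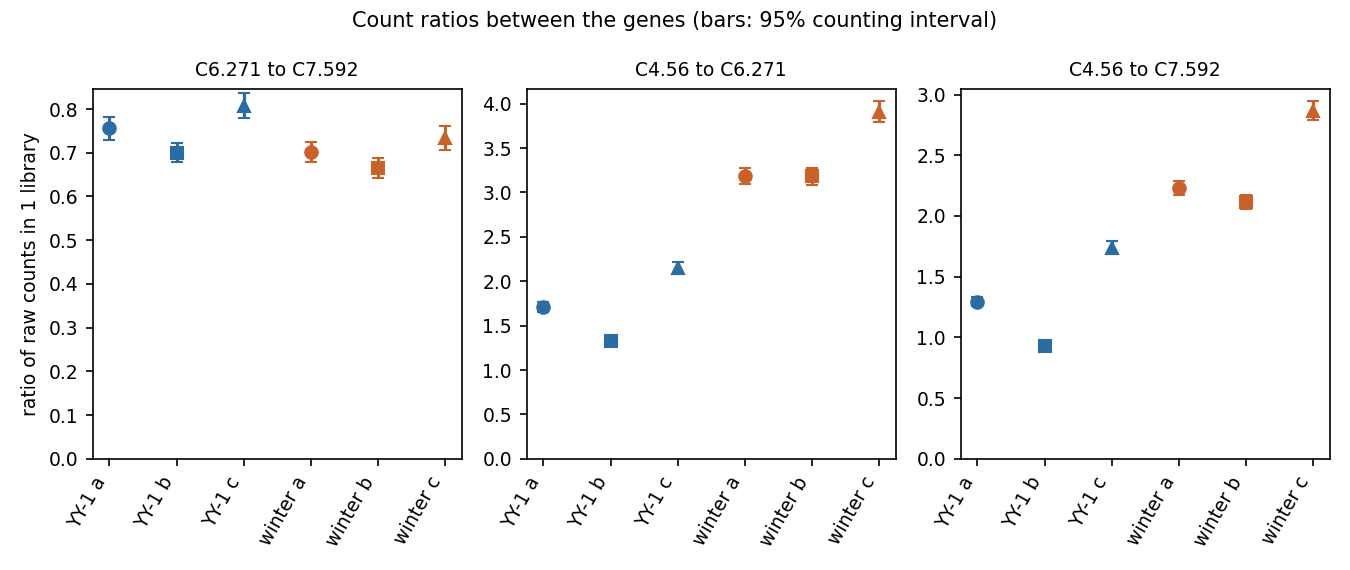
Ratio of raw read counts of 2 genes in each library, with its exact 95% counting interval as the bar. The ratio of C6.271 to C7.592 stays between 0.664 and 0.807 and overlaps between the strains, whereas both ratios of C4.56 are higher in each winter library than in each YY-1 library.

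How far the succinate dehydrogenase genes moved together was measured by the SD over the 6 libraries of the log2 ratio between them, which is 0 for genes in constant proportion. It was 0.099 for C6.271 and C7.592. Of the 3655 other genes with a mean count of at least 500, C7.592 ranked 16 by this measure against C6.271, and in turn C6.271 ranked 11 against C7.592, where the median SD was 0.490 and 0.459. For C4.56 and C6.271 the SD was 0.602, at rank 2352 of the genes compared with C6.271. While 71.1% of these genes had a ratio to C6.271 that separated the strains, C7.592 was not among them. The measure describes 6 libraries in 2 strains and takes in the change between the strains as well as the spread within them.

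With the strain means removed, the SD of the log2 ratio was 0.089. On this within-strain measure C7.592 ranked 66 among the 3655 genes for C6.271, whose median SD was 0.242, and C6.271 ranked 30 for C7.592, whose median was 0.254. Of the 6 pairs of libraries from the same strain, C6.271 and C7.592 stepped in the same direction in 4, C4.56 and C6.271 in 5, and C4.56 and C7.592 in 3. Both counts for C4.56 include winter replicate a to winter replicate c, where its log2 step was only -0.0038 and its sign carries little weight. The pairs of a strain also share libraries, so that this coarse count does not set the succinate dehydrogenase pair apart. The largest shared step was from winter replicate a to winter replicate c, with log2 changes of -0.30 for C6.271 and -0.36 for C7.592. They parted between replicates b and c in YY-1 (0.08 and -0.12) and in winter (0.03 and -0.12). Citrate synthase took a step of 0.78 from YY-1 replicate b to replicate c, where the succinate dehydrogenase genes moved by 0.08 and -0.12. No correlation across libraries is given, because the 3 libraries of a strain are too few.

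**Figure D4:**
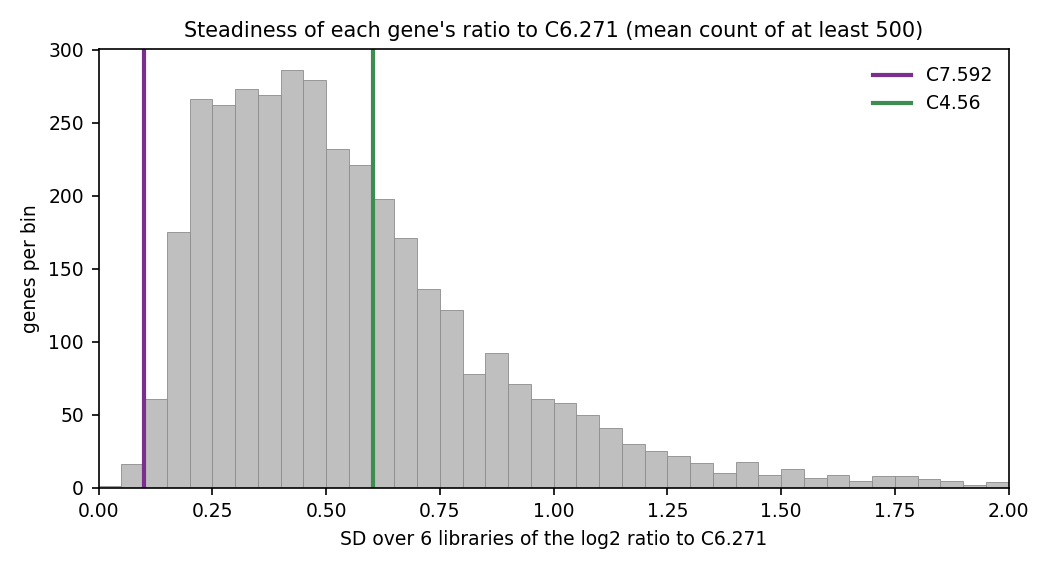
Histogram of the SD over 6 libraries of the log2 ratio of each of 3655 genes to C6.271 (x axis, bins of 0.05; 36 genes at or above 2 are outside the axis). C7.592, at 0.099, lies at the low end of the genes, and C4.56, at 0.602, lies above the median of 0.490.

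The genes whose level followed a member most closely by the same measure carry no annotation in the sources used. For C4.56 they were C8.31 (SD of the log2 ratio 0.053), C5.712 (0.059) and C1.31 (0.067), none of which was called between the strains. C5.712 ranged from 605 to 1104 CPM with a log2 fold change of 0.37 (edgeR adjusted p = 0.210). For C6.271 they were C2.449 (0.045), C7.49 (0.063) and C4.58 (0.066), all called lower in winter, and for C7.592 they were C2.709 (0.052), C6.542 (0.081) and C2.662 (0.082), likewise all lower. Of all tested genes, 25.5% were called lower. The measure takes in the change between the strains, so that genes chosen by it share the change of their member. Their direction and calls are therefore fixed by the choice and are no separate result. C4.58, which followed C6.271, lies 2 gene numbers from the citrate synthase gene C4.56 and fell from 344 to 237 CPM (log2 fold change -0.54, edgeR adjusted p = 0.0139).

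Genes around C4.56 and C6.271 changed in both directions. The counts that follow are read against the 22.5% of all tested genes called higher and the 25.5% called lower, and with 9 or 10 genes each they single out no neighbourhood. Among the 10 genes within 5 gene numbers of C4.56 on scaffold C4, C4.55 and C4.57 were higher and C4.52, C4.53, C4.58 and C4.60 were lower in winter, and the log2 fold changes of all 10 ran from -1.44 to 2.18. The adjacent C4.57 rose from 388 to 1756 CPM, the largest change near any member (log2 fold change 2.18, edgeR adjusted p = 7.01e-05). Around C6.271, 3 of the 9 tested genes were higher (C6.266, C6.269 and C6.270) and 3 were lower (C6.272, C6.273 and C6.274). The called genes before C6.271 were thus all higher and those after it all lower, with log2 fold changes from -1.09 to 1.28. Genes not called went the other way, with -0.08 for C6.267 before it and 0.42 and 0.29 for C6.275 and C6.276 after it. The called C6.269, C6.272, C6.273 and C6.274 had low strain means, between 1.04 and 9.47 CPM. Around C7.592, 5 of 10 genes were higher (C7.587, C7.588, C7.590, C7.593 and C7.595) at an adjusted p below 0.05 in edgeR, while C7.592 itself was lower. C7.591 (log2 fold change -0.68, adjusted p = 0.0523) and C7.597 (log2 fold change -0.14, adjusted p = 0.419) had lower values in every winter library without passing the threshold in edgeR, and C7.589 (log2 fold change 0.26, adjusted p = 0.223) had higher ones. The scaffold positions are gene numbers, and distances in bases were not used here.

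Few other genes of the cycle can be named, since the annotation at hand lists those the study found raised in these same libraries, and their direction is therefore no independent evidence. C2.418, placed in the TCA cycle without a named activity, had 65.7 to 88.3 CPM in YY-1 and 184 to 197 CPM in winter, a log2 fold change of 1.32 (edgeR adjusted p = 0.000102). Malate dehydrogenase, which turns malate to oxaloacetate, the partner of acetyl-CoA in the citrate synthase reaction, is the annotation of 3 further genes. Of these, C7.364 was the one with by far the most reads. It had 485, 559 and 611 CPM in the YY-1 libraries and 1183, 652 and 972 CPM in those of winter, with a log2 fold change of 0.76 (edgeR adjusted p = 0.0199). C5.655 and C8.167, both annotated with a quinone-linked malate dehydrogenase activity, had log2 fold changes of 1.24 and 1.14 at mean levels no higher than 16.6 and 45.7 CPM. All 4 genes were called higher in winter, while no member was, although C4.56 had a log2 fold change of 0.37. Of all tested genes 22.5% were called higher, so that the lack of such a call among 3 members is no result about them. The study named the members as downregulated in winter from these libraries, so that this contrast was in part fixed by how both lists were chosen.

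Citrate lyase splits the product of citrate synthase back to acetyl-CoA and oxaloacetate, and both of its annotated genes rose in winter, C5.304 by a log2 fold change of 1.30 and C5.305 by 1.63 (edgeR adjusted p = 0.00117 and 0.000298). The count ratio of C4.56 to C5.304 was 0.925, 0.778 and 1.96 in the YY-1 libraries, and 0.570, 0.624 and 0.596 in winter. The highest ratio, in YY-1 replicate c, combined the highest citrate synthase level of that strain with its lowest C5.304 level (657 CPM, against 992 and 966 CPM in replicates a and b). All winter ratios were below all YY-1 ratios, in the opposite direction to the ratios with succinate dehydrogenase. The study named the citrate lyase genes as raised and the succinate dehydrogenase genes as lowered in these libraries, so that the opposite directions are no independent evidence. The ratio of C4.56 to another gene with a mean count of at least 500 separated the strains in 42.9% of 3655 genes.

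**Figure D5:**
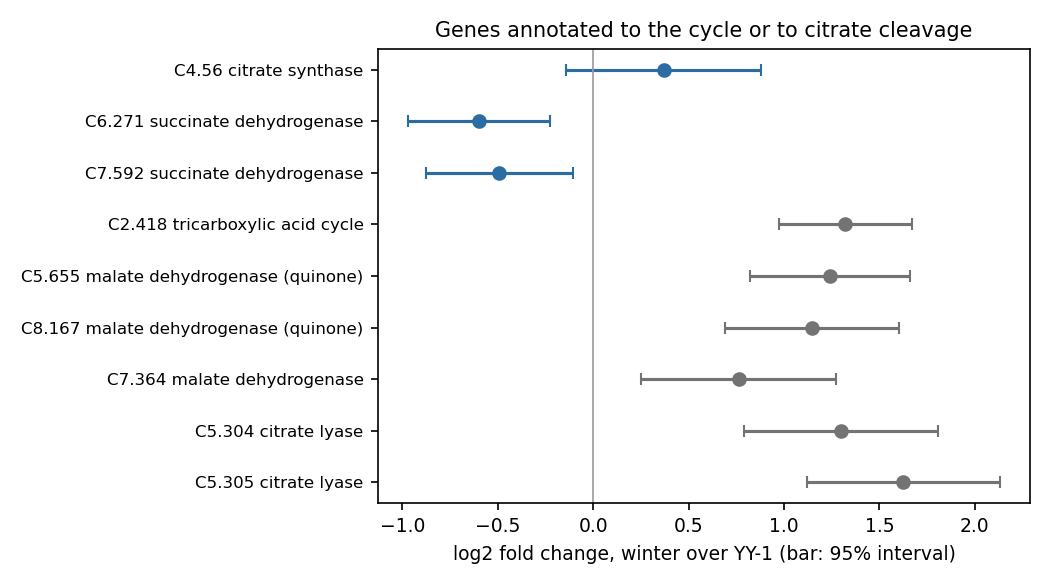
Log2 fold change of winter over YY-1 with its 95% interval for the 3 members (blue) and for 6 other genes annotated to the cycle or to citrate cleavage (grey). The members lie between -0.60 and 0.37 and the other genes between 0.76 and 1.63. The grey genes were annotated by the study from genes raised in these libraries or named for being raised. The study named the blue genes as downregulated in the same libraries.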

How the data were processed

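According to the study's methods, reads were quality-filtered (NGS QC Toolkit), aligned with TopHat to transcripts predicted from the YY-1 genome and counted by HTSeq where they fell on unique exons. The versions of TopHat and HTSeq in the methods and in the submitters' processing notes differ. The authors deposited raw counts per gene, which they had not normalized. Reads shared with a near-identical gene are not counted, and strandedness is not given in the sources used here, so reads of overlapping genes may be mixed.

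Counts of 7355 genes (edgeR 4.0.16 default filter, 136 rows removed) were scaled by TMM and compared between the strains by the quasi-likelihood test of edgeR, without further terms. Benjamini-Hochberg adjustment ran over all genes tested, with a threshold of 0.05. The study used DESeq, in place of which DESeq2 1.42.0 was run as an alternative. A standard error is the log2 fold change divided by the square root of F. Ratios were compared by exact permutation, for 3 ratios in all, and no p adjusted over the members alone is given. Ratio intervals are exact binomial (95%) and cover counting error only.

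The members and lists were chosen with earlier results of these data known. The genes named are the members, the other cycle genes the study annotates, the 3 genes of steadiest ratio to each member (mean count of at least 500), and called neighbours within 5 gene numbers. C7.589, C7.591 and C7.597 were named after their values were seen. No identifier matched the reference gene table, made for the strain KUPM5, and coordinates, lengths and sequences of the genes were not used here.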

Additional observations from a re-analysis of the deposited data

How the results depend on the processing

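The direction of all 3 fold changes and all 3 ratio differences was the same in every alternative run: 15 for each fold change and 8 for each ratio. For the ratios, the replicate block returns the same mean difference by arithmetic, so that its direction could not change. Leaving out 1 library at a time, the log2 fold change ranged from 0.21 to 0.61 for C4.56, from -0.71 to -0.54 for C6.271 and from -0.60 to -0.42 for C7.592, and the ratio difference of C6.271 to C7.592 from -0.16 to -0.06. Calls changed when C4.56 was fitted without YY-1 replicate c, C6.271 without winter replicate c, and C7.592 without replicate a or b of YY-1 or replicate b or c of winter. Fewer libraries also widen the error, and the cause was not tested. No call changed under the other 9 alternatives (3 other sets of scaling factors, library totals alone, 2 other filters, DESeq2's Wald test, thinned winter libraries and the replicate block), where the log2 fold changes lay between 0.28 and 0.40, -0.70 and -0.57, and -0.60 and -0.46. Over all genes, between 2666 (without winter replicate c) and 3841 (replicate block) were called, against 3531. Nothing in the labels ties libraries of the same letter. Their deviations from the strain means correlated at 0.097, 0.28 and 0.10 for letters a, b and c, against -0.30 to 0.18 between unlike letters. Letter a narrowly missed a threshold of 0.1, and the letters were not taken as pairs. These values do not settle whether libraries of the same letter are linked. YY-1 replicates b and c each correlated best with the winter library of their own letter, and YY-1 replicate a with winter replicate c (0.18). With the letter as a replicate block, the log2 fold changes were 0.40 for C4.56 (edgeR adjusted p = 0.0930), -0.61 for C6.271 and -0.50 for C7.592. Depth did not limit the values, as thinning the winter libraries left C4.56 at 0.36, C6.271 at -0.60 and C7.592 at -0.50.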

Other observations

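The pair of citrate lyase genes gives a second case of 2 genes annotated to the same enzyme, and was chosen after its values were seen. The count ratio of C5.304 to C5.305 was 1.48, 1.51 and 1.53 in the YY-1 libraries and 1.20, 1.17 and 1.22 in those of winter (replicates in the order a to c). Within a strain it was steadier than the ratio of C6.271 to C7.592, with an SD of the log2 ratio of 0.024 against 0.089. Between the strains it moved further, by -0.33 against -0.11 on the log2 scale, and did not overlap. Both ratios hold for these libraries only, and the difference between the pairs was not tested.

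The ratio of C6.271 to C7.592 was highest in replicate c and lowest in replicate b in both strains, and so was the ratio of C4.56 to C7.592. These ratios share C7.592 and are not separate observations. The ratio of C4.56 to C6.271 had the same order, although winter replicates a and b were almost equal (3.183 and 3.181). The labels give the letters no meaning beyond a name.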
